A study of Homo sapiens with 22 samples.

Results

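Genes named for proteins of the large ribosomal subunit were represented in an exon usage table of HEK293T cells by 10 gene models. These held 66 exonic bins, out of 636 models and 2635 bins in all. The 66 include 5 bins of the neighbour gene TCEB3, which stay in the counts below unless stated. Members were taken by name: RPL11 (joined with TCEB3), RPL13 (with SNORD68), RPL21 (with SNORD102 and SNORA27), RPL24, RPL28, RPL31, RPL32 (with SNORA7A), RPL34, RPL37 (with SNORD72) and RPL7L1. Exonic bins are the pieces left when the exons of all transcripts of a model are divided at each other's ends, and the usage of a bin is its share of reads relative to the rest of the model. HEK293T is a line derived from human embryonic kidney. The table was limited, by the sample descriptions, to genes that contain m6A, so its bins are no sample of exons in general. It covered 4 comparisons of stranded mRNA libraries, with 2 libraries per group. Knockdowns KD1 and KD2 of HNRNPG were each set against the wild-type controls of the HNRNPG series, and knockdowns of METTL3 and METTL14 were each set against the wild-type controls of the METTL series. KD1 and KD2 thus shared their controls, as did METTL3 and METTL14. Comparisons with the same controls are not independent, so a shared sign within such a pair is not a separate observation. A contrast between the HNRNPG and METTL pairs cannot be told apart from a difference between their control groups. The labels do not say how the knockdowns were made, how KD1 and KD2 differ, or whether the libraries within a group are separate cultures.

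HNRNPG, the product of RBMX, binds RNA in the nucleus and acts in splicing, while METTL3 with its partner METTL14 places N6-methyladenosine (m6A) on RNA. The mRNA libraries used here compare exon usage with and without knockdown of HNRNPG or of the m6A writers. The study also made 10 crosslinking libraries, among them HNRNPG libraries with METTL3 or METTL14 knocked down, which were not used here. Ribosomal protein genes are short, strongly transcribed genes with many small introns, and several of these introns carry small nucleolar RNAs (snoRNAs) that guide chemical modification of ribosomal RNA. Their mRNAs typically begin with a C followed by a run of pyrimidines, the terminal oligopyrimidine tract through which translation of the whole set is controlled. The products assemble with ribosomal RNA in the nucleolus into the subunit that forms peptide bonds.

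The start sites are printed to show this tract. Members were chosen by name and the tract is typical of ribosomal protein genes, so its frequency among them is no independent result. RefSeq (GRCh38.p14) start windows were given for 9 of the 10 RPL genes. Of these 9, 7 had at least 1 listed start at a C that opened a run of at least 5 bases of C or T. Over all genes with a RefSeq start, 5.14% had such a run. Each window runs 5′ to 3′ from 20 bases before the start to 20 bases from the start on, and capitals mark the pyrimidine run. Where a gene had several starts, one with the run was taken, and otherwise the first listed. RPL11 and RPL34 had the run at 1 of 2 listed starts and RPL13 at 1 of 3.
RPL11 (chr1:23691786-23691825, plus strand): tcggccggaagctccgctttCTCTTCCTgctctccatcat
RPL13 (chr16:89560662-89560701, plus strand): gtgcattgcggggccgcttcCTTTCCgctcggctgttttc
RPL21 (chr13:27251538-27251577, plus strand): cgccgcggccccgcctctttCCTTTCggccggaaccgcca
RPL24 (chr3:101686699-101686738, minus strand): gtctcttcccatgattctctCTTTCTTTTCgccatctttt
RPL28 (chr19:55385912-55385951, plus strand): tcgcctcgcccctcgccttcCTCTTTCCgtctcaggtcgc
RPL31 (chr2:101002269-101002308, plus strand): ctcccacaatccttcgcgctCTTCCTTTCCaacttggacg
RPL34 (chr4:108620556-108620595, plus strand): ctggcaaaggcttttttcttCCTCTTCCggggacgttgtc
RPL32 (chr3:12841546-12841585, minus strand): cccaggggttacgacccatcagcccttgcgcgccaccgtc
RPL7L1 (chr6:42879596-42879635, plus strand): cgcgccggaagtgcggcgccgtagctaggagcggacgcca
The longest runs, of 10 bases, belonged to RPL24 and RPL31. RPL32 and RPL7L1 had no such run at a listed start. The exon table uses another build, hg19, so these windows were not placed against its bins.

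Changes are given as the log2 ratio of knockdown to control, with negative values for bins used less in the knockdown. Where 4 values follow each other they stand in the order KD1, KD2, METTL3, METTL14. The values are the authors' own, 1 per bin and comparison, with no error, count or p-value used here. The authors deposited them as control over knockdown. Every value credited below to their deposited table is therefore printed with its sign turned. No difference below therefore has a replicate check or a test, and the depth behind each bin is unknown. A bin is spoken of as past 0.5 when its change was at least 0.5 in size. Coordinates of bins are hg19, and bins were not assigned to coding sequence, untranslated region or intron. The depletion of RBMX, METTL3 and METTL14 was not analysed here.

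Past 0.5, members were mostly on the lower side. In KD1, 6 of the 66 bins were lower and 1 was higher, where 9.03% and 6% of all listed bins were. In KD2, 12 were lower and 0 higher (13.9% and 7.78% of all listed bins). METTL3 knockdown had 12 lower and 2 higher (14.8% and 7.63%), and METTL14 knockdown had 7 lower and 2 higher (10.6% and 5.46%). As shares of the members, the lower bins were 9.09%, 18.2%, 18.2% and 10.6% in the 4 comparisons. These shares were close to all bins in KD1 and METTL14 and above them in KD2 and METTL3. The lower bins of KD2 and METTL3 include 2 abutting runs, RPL31 exon bins 7 to 9 and RPL37 exon bins 24 to 26. Abutting bins are not separate observations, so these shares count some stretches more than once. The higher bins were 1.52%, 0%, 3.03% and 3.03% in that order, in each comparison below the share over all bins. This was not particular to the large subunit, as small subunit bins were also below it, at 2.86%, 1.43%, 2.86% and 0%. The median change of the members was -0.024, -0.101, -0.102 and -0.043 in the 4 comparisons. Over all listed bins these medians were -0.037, -0.064, -0.039 and -0.043, so the typical member bin lay within 0.1 of the typical bin of the table.

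**Figure D1:**
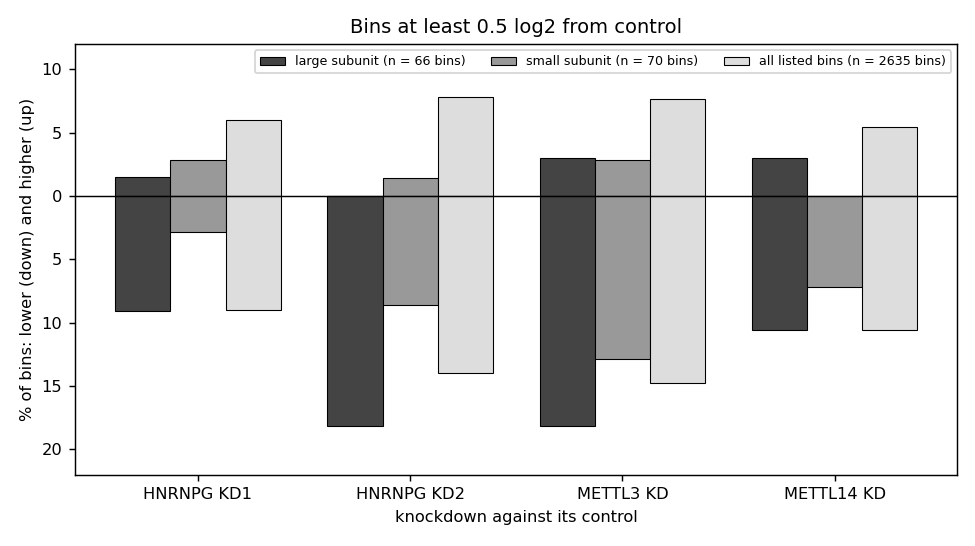
Percent of exonic bins at least 0.5 in log2 size below control (drawn downwards) or above control (drawn upwards) in each of the 4 knockdowns, for bins of the large subunit models (66), of the small subunit models (70) and all listed bins (2635). Bars have no error because the table holds 1 value per bin. Higher bins made up 0 to 3.03% of the large subunit bins and 0 to 2.86% of the small subunit bins. Both were below all listed bins in every comparison.

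In all, 20 of the 66 bins (30.3%) in 8 of the 10 models were past 0.5 in at least 1 comparison, against 41.3% of all listed bins. RPL24 and RPL7L1 had none. Short bins were more frequent among the members: 17 (25.8%) were under 20 bp, against 242 (9.18%) in the table. None of these 17 was past 0.5 in any comparison, while 35.1% of the short bins of the table were. The 17 include 2 abutting runs of the RPL11 model, exon bins 3 to 5 and 10 to 13, and its TCEB3 exon bin 37. They are thus not 17 separate observations. Among bins of at least 20 bp the shares were 40.8% of 49 member bins and 41.9% of 2393 listed bins, so most of the gap lay in the short bins. Counted on one side of 0 in all 4 comparisons, whatever the size, 19 member bins were lower (23.9% of all listed bins were) and 8 were higher (16.7%). With each comparison centred on the median of all listed bins, the split of the members was 13 lower and 15 higher. Their excess of lower bins over higher ones in this count thus rests on the zero point. The centred split over all listed bins is not given here, so 13 and 15 cannot be set against the table. KD1 and KD2 lay on opposite sides for 19 member bins, 28.8% of them against 25.0% of all listed bins. METTL3 and METTL14 did so also for 19, where the share over all listed bins was 34.8%.

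**Figure D2:**
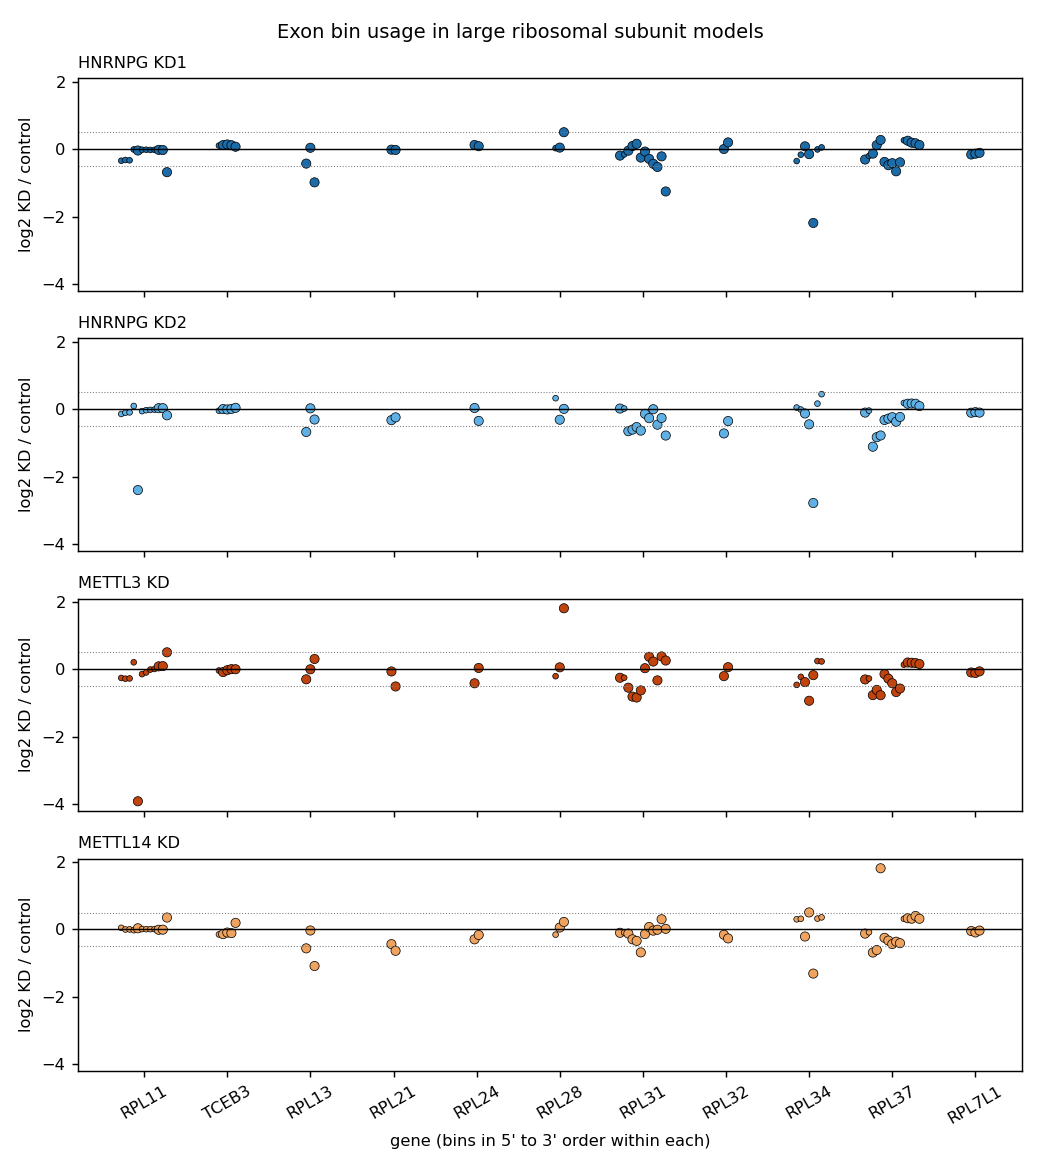
Change of every member bin (log2 of knockdown over control, vertical axis) by gene, 1 panel per knockdown, with bins in 5′ to 3′ order within each gene, small points for bins under 20 bp and dotted lines at 0.5 above and below 0. Most points lie near 0, and the farthest are RPL11 exon bin 9 at -3.91 in METTL3 and RPL34 exon bin 16 at -2.78 in KD2.

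RPL37, a zinc-binding protein of the subunit, had 15 bins, and 13 of them lay on one side in all 4 comparisons. The 5 bins at the 3′ end were higher in every knockdown, and the 5 bins just upstream were lower in every knockdown. The 3′ group, exon bins 4 to 8 (chromosome 5, 40827056 to 40828053, minus strand), ranged from 0.12 to 0.26 in KD1 in the authors' deposited table. It ranged from 0.095 to 0.19 in KD2, from 0.14 to 0.20 in METTL3 and from 0.31 to 0.40 in METTL14 in the authors' deposited table. The listed m6A site of the model (position 40827982) lies in exon bin 6, which stood at 0.19, 0.17, 0.20 and 0.32 in the authors' deposited table. That bin did not stand apart from its 4 neighbours. The 5 bins abut each other and are not separate observations, so this likeness says little about the site.

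The next group upstream in RPL37, exon bins 9 to 14 (40828054 to 40832382, with exon bin 10 not listed), had changes of the opposite sign. Its values ran from -0.66 to -0.38 in KD1, from -0.37 to -0.23 in KD2, from -0.67 to -0.14 in METTL3 and from -0.44 to -0.25 in METTL14 in the authors' deposited table. Exon bin 9, of 2043 bp, abuts exon bin 8, of 3 bp, and the sign turned at that border in every comparison. In the authors' deposited table exon bin 9 had -0.39, -0.23, -0.57 and -0.41, and exon bin 8 had 0.26, 0.19, 0.14 and 0.31. Exon bin 11, of 38 bp, was the lowest of the group in KD1, KD2 and METTL3, with -0.66, -0.37 and -0.67 in the authors' deposited table. Because usage is relative to the whole model, lower values in one group raise those of the other, so the groups are not separate observations. Both groups kept their sides after centring on the median of all bins.

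Nearer the 5′ end of RPL37, exon bins 24 to 26 abut each other (40834709 to 40835284) and were lower in KD2 and METTL3. In the authors' deposited table exon bin 26 had -0.13, -1.11, -0.77 and -0.69. Exon bin 25 had 0.12, -0.83, -0.61 and -0.61 in the authors' deposited table. Exon bin 24, of 304 bp, had 0.27, -0.78 and -0.77 in KD1, KD2 and METTL3 but 1.81 in METTL14 in the authors' deposited table, the highest METTL14 value of any member. In METTL14 the abutting exon bins 24 and 25 were thus on opposite sides, far apart, and no other comparison separated them so. The first bins, exon bins 28 and 29, were lower in all 4, with -0.31 to -0.040 over both bins and all comparisons in the authors' deposited table, though exon bin 28 stood at 0.024 in KD2 after centring. SNORD72, a snoRNA that guides ribose methylation, lies within RPL37 in RefSeq, but it was not placed among the hg19 bins.

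**Figure D3:**
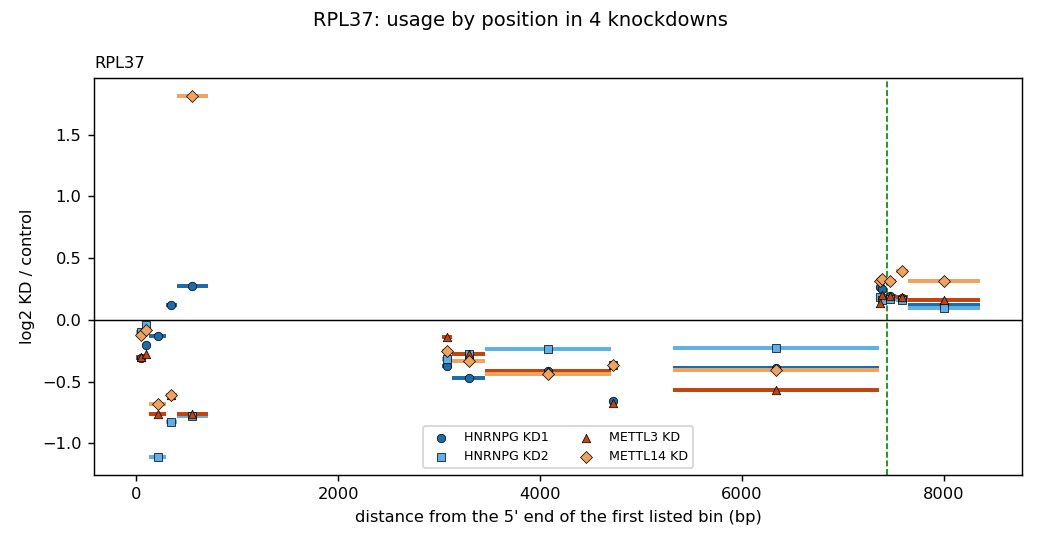
Change in usage (log2 of knockdown over control) of the 15 RPL37 bins against distance in bp from the 5′ end of the first listed bin, with a horizontal bar for each bin's extent, 1 colour and marker per knockdown, and a dashed line at the listed m6A site. The 5 bins at the right are above 0 in all knockdowns, the 5 bins in the middle are below 0 in all, and a single bin near the 5′ end stands at 1.81 in METTL14.

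RPL31, which lies near the exit of the peptide tunnel, had 12 bins and 6 of them were past 0.5 in some comparison. Lower usage in KD2 and in METTL3 marked exon bins 7 to 9, which abut each other (chromosome 2, 101618778 to 101619152, plus strand). In the authors' deposited table exon bin 7 had -0.044, -0.65, -0.54 and -0.12. Exon bin 8 had 0.094, -0.60, -0.81 and -0.29 in the authors' deposited table. Exon bin 9, of 52 bp, holds a listed m6A site (101619107) and had 0.16, -0.53, -0.84 and -0.34 in the authors' deposited table. KD1 thus went against the other comparisons in both of the last bins. The first bins of the gene, exon bins 3 and 4 (62 and 2 bp), lay close to each other, with -0.19 and -0.16 in KD1 and -0.25 in both in METTL3 in the authors' deposited table.

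Exon bin 19 of RPL31 (101620824 to 101621612, 789 bp) holds the other pair of listed m6A sites of the gene, at 101621371 and 101621448. It was lower in all 4 comparisons, with -0.25, -0.63, -0.63 and -0.68 in the authors' deposited table. Exon bin 20, which abuts it downstream and holds no listed site, had -0.070, -0.14, 0.033 and -0.14 in the authors' deposited table. Of this abutting pair, the bin with the sites had the larger change in every comparison. Farther downstream exon bin 24 had -0.29 and -0.26 in KD1 and KD2 but 0.37 and 0.071 in METTL3 and METTL14, and exon bin 33 had -0.43, 0.001, 0.23 and -0.037 in the authors' deposited table.

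A second group of RPL31 bins begins 9712 bp beyond the first. In it, exon bin 43 (101640087 to 101640499) was lower in both HNRNPG knockdowns and not in the METTL knockdowns, with -1.25, -0.78, 0.26 and 0.016 in the authors' deposited table. Exon bin 39 had -0.21, -0.26, 0.38 and 0.30 in the authors' deposited table, again with the signs of the HNRNPG and METTL comparisons opposed. Exon bin 36, of 1061 bp, was lower in all, with -0.53, -0.46, -0.33 and -0.010 in the authors' deposited table, though its METTL14 value was 0.033 after centring. In RefSeq the gene overlaps TBC1D8, and the sources used here do not say whether counting used strand, so reads of this second group may not all belong to RPL31.

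**Figure D4:**
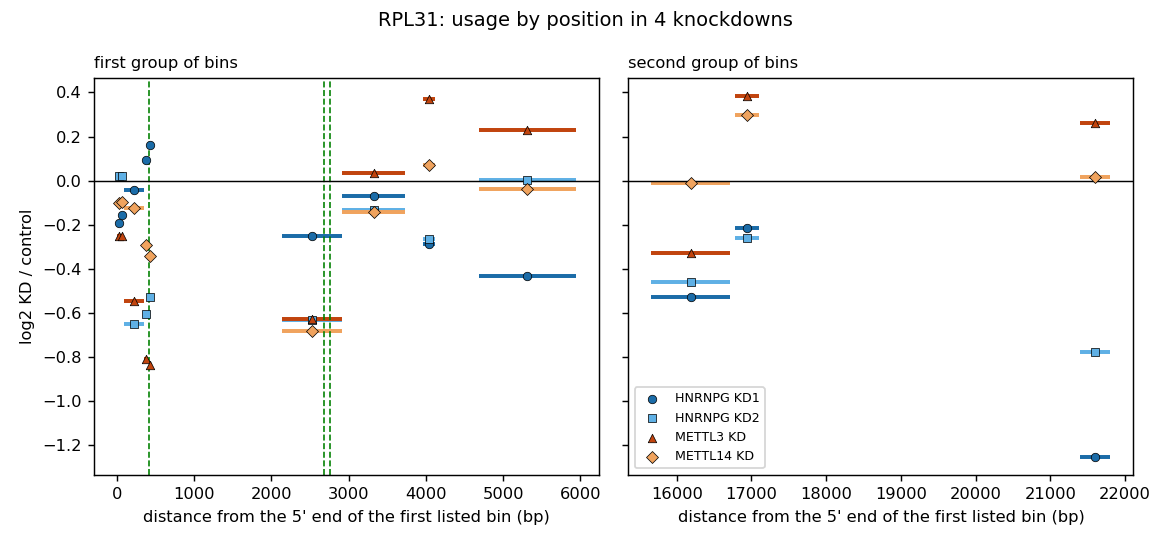
Change in usage (log2 of knockdown over control) of the 12 RPL31 bins against distance in bp from the 5′ end of the first listed bin, in 2 panels for the groups of bins before and after the gap of 9712 bp, with dashed lines at the listed m6A sites. Near the sites KD2 and METTL3 are the farthest below 0 in exon bins 7 to 9, all knockdowns are below 0 in exon bin 19, and at the far right only the HNRNPG knockdowns are below 0.

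RPL34 had the member bin with the largest mean size of change over the 4 comparisons. This was exon bin 16 (chromosome 4, 109543361 to 109543670, plus strand, 310 bp), which was low in KD1, KD2 and METTL14 and close to 0 in METTL3. Its values were -2.19, -2.78, -0.17 and -1.31 in the authors' deposited table. Upstream of it exon bin 10, of 685 bp, had a different profile in the authors' deposited table, with -0.15, -0.45, -0.93 and 0.50. The METTL3 and METTL14 comparisons were thus on opposite sides of 0 in exon bin 10, and METTL14 was the lower of the pair in exon bin 16. The first bins, exon bins 1 and 2 (9 and 7 bp), were also split between the writers, with -0.46 and -0.22 in METTL3 against 0.30 and 0.31 in METTL14 in the authors' deposited table. Exon bin 7, of 81 bp, was lower in all but KD1, at 0.085, -0.13, -0.38 and -0.21 in the authors' deposited table. At the 3′ end exon bins 24 and 28, of 15 and 2 bp, were higher in KD2, METTL3 and METTL14, between 0.17 and 0.45 in the authors' deposited table. The listed m6A site of the model (109548685) lay in none of its listed bins.

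Over the 4 comparisons, the 3 bins of the table nearest to RPL34 exon bin 16 by Euclidean distance were PSMB7 exon bin 5, SETMAR exon bin 27 and M6PR exon bin 4. Their distances were 1.34, 1.39 and 1.47 log2 units. In the authors' deposited table PSMB7 exon bin 5 had -1.30, -2.14, -0.46 and -0.59, with the HNRNPG comparisons lower than the METTL ones as in RPL34. The M6PR bin was 4 bp long.

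RPL11, which joins the subunit together with RPL5 and the smallest rRNA and also binds the p53 regulator MDM2, had 12 of the 17 bins of its joined model. The other 5 lie 53704 bp downstream and were assigned to TCEB3 (now ELOA), the elongin A subunit of a transcription elongation factor. RPL11 exon bin 9 (chromosome 1, 24018551 to 24019098, plus strand, 548 bp) was far lower in 1 knockdown of each pair and near 0 in its partner. In the authors' deposited table it had -0.039 in KD1 and -2.40 in KD2, and -3.91 in METTL3 and 0.033 in METTL14. Exon bin 10, of 3 bp, abuts it and had -0.016, -0.056, -0.14 and 0.008 in the authors' deposited table, so the change ended at that border. The listed m6A site (24019585) lies 487 bp from exon bin 9, in none of the listed bins.

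Of the other RPL11 bins, those in the middle of the gene lay nearest to 0. From exon bin 10 to exon bin 20, the 6 listed bins stayed between -0.14 and 0.095 in all comparisons in the authors' deposited table. Exon bins 3 to 5 at the start of the model, of 14, 12 and 1 bp, lay between -0.34 and -0.32 in KD1 and between -0.28 and -0.26 in METTL3 in the authors' deposited table. Exon bin 7, of 6 bp and 16 bp downstream of them, had -0.008, 0.097, 0.21 and -0.024 in the authors' deposited table, without their low values. At the 3′ end exon bin 31, of 711 bp, had -0.68, -0.18, 0.50 and 0.35 in the authors' deposited table, with the HNRNPG and METTL comparisons on opposite sides. The 5 TCEB3 bins were higher in KD1, by 0.073 to 0.14, and 4 of them were lower in METTL14 by up to -0.15 in the authors' deposited table. As the model was counted as one gene, a change in the level of RPL11 relative to TCEB3 would also move these values, and its part was not tested.

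**Figure D5:**
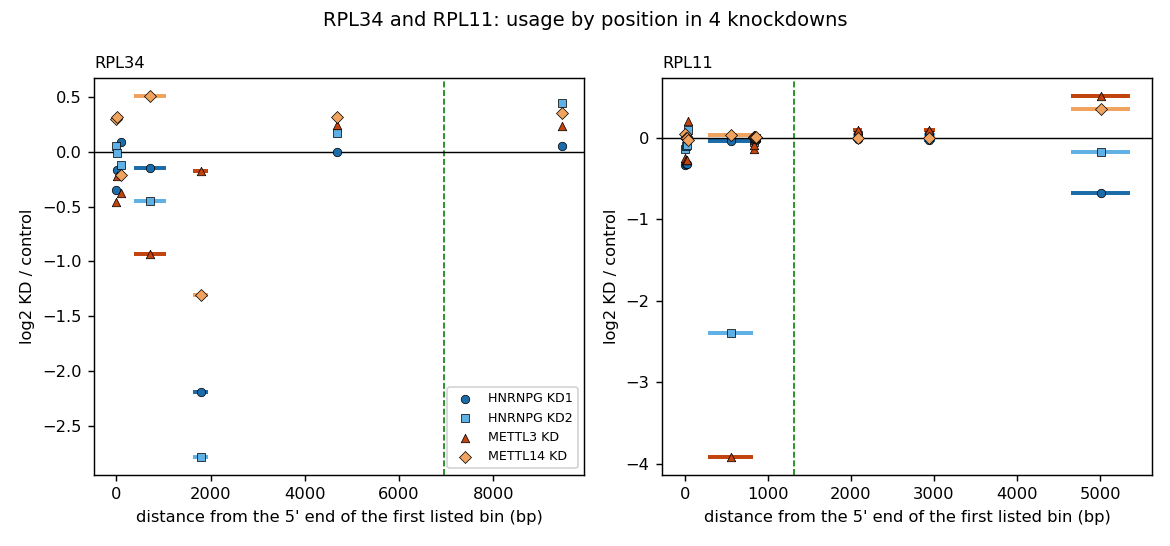
Change in usage (log2 of knockdown over control) of the 7 RPL34 bins (left) and the 12 RPL11 bins (right) against distance in bp from the 5′ end of the first listed bin, with a dashed line at the listed m6A site. In RPL34 exon bin 16 is at -2.19 and -2.78 in the HNRNPG knockdowns, and in RPL11 exon bin 9 is at -2.40 in KD2 and -3.91 in METTL3 while KD1 and METTL14 lie near 0.

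RPL13, a core protein of the subunit, had 3 bins. Exon bin 22 (chromosome 16, 89628160 to 89628257, plus strand, 98 bp) was lower in all comparisons, with -0.43, -0.67, -0.30 and -0.56 in the authors' deposited table. The last bin, exon bin 39 (89630950 to 89633236, 2287 bp), stood at -0.98, -0.30, 0.31 and -1.09 in the authors' deposited table, so METTL3 alone was above 0. Exon bin 25, of 57 bp, holds the listed m6A site (89628749) and lay between -0.033 and 0.042 in all comparisons in the authors' deposited table. The bin with the site was thus the one with the least change in this gene.

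RPL21 had 2 bins on chromosome 13, both lower in every comparison. Values for exon bin 20 (27828605 to 27829081) were -0.014, -0.32, -0.063 and -0.44, and those for exon bin 24 (27829492 to 27829848) were -0.023, -0.24, -0.51 and -0.64 in the authors' deposited table. KD1 was close to 0 in both and turned positive after centring on the median of all bins. RefSeq lists 137 pseudogenes named after RPL21, 64 after RPL31, 37 after RPL32, 36 after RPL34 and between 5 and 25 after each of the other members. The sources used here do not say how reads shared with such copies were counted, so values of these genes, RPL21 above all, are uncertain. The host gene also holds SNORD102 and SNORA27, of the classes that guide ribose methylation and pseudouridine formation.

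RPL28, a protein with no counterpart in budding yeast, had 3 bins and a single large change. Exon bin 28 (chromosome 19, 55914311 to 55914710, plus strand) was higher in all comparisons, with 0.50, 0.011, 1.81 and 0.22 in the authors' deposited table. This is the highest METTL3 value among the members, and METTL14, which shares its controls, was much nearer to 0. The bin lies 11389 bp beyond the listed bin before it, and in RefSeq the gene overlaps UBE2S, a ubiquitin-conjugating enzyme, so its reads may not all belong to RPL28. Exon bin 23, of 3069 bp, had 0.047, -0.31, 0.059 and 0.056, and exon bin 2, of 11 bp, had 0.031, 0.33, -0.20 and -0.16 in the authors' deposited table.

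RPL32 and RPL24 had 2 bins each. RPL32 exon bin 10 (chromosome 3, 12877723 to 12879907, minus strand, 2185 bp) was lower in KD2, with 0.005, -0.72, -0.20 and -0.16 in the authors' deposited table. RPL32 exon bin 2, of 21 bp, had 0.20, -0.35, 0.064 and -0.27 in the authors' deposited table. In both bins KD2 was the lowest of the 4 comparisons and KD1 the highest. RefSeq has RPL32 overlapping CAND2 and holding SNORA7A, of the class that guides pseudouridine formation. RPL24, which forms a bridge to the small subunit, stayed within 0.5. Its exon bin 14 (chromosome 3, 101405402 to 101405515, minus strand) stood at 0.13, 0.037, -0.41 and -0.30, lower in the METTL knockdowns, and exon bin 1 had 0.088, -0.35, 0.040 and -0.17 in the authors' deposited table.

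RPL7L1, a relative of RPL7 and of the yeast assembly factor Rlp7, had 3 abutting bins (chromosome 6, 42854209 to 42854751, plus strand). All were slightly lower in every comparison, from -0.16 to -0.035 in the authors' deposited table. After centring on the median of all bins, exon bin 40 was above 0 in METTL14 by 0.008, so that its direction there depends on the zero point. The listed m6A site (42855560) lay downstream of all 3.

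Across the members, 5 of the 13 listed m6A sites fell inside a listed bin. These were the sites in RPL37 exon bin 6, RPL31 exon bins 9 and 19 and RPL13 exon bin 25, with changes that differed from gene to gene. RPL37 exon bin 6 was higher in all comparisons, RPL31 exon bin 19 was lower in all, RPL31 exon bin 9 was lower in all but KD1, and RPL13 exon bin 25 lay near 0. By length, bins of at least 200 bp were lower and past 0.5 more often than shorter ones. In KD2 there were 7 among 26 long and 5 among 40 shorter member bins (26.9% and 12.5%), while over the table the shares were 15.2% and 12.9%. In KD1 there were 5 and 1 (19.2% and 2.5%), with 11.6% and 6.95% over the table. In METTL3 the shares were 26.9% and 12.5% (17.6% and 12.5% over the table), and in METTL14 15.4% and 7.5% (11.8% and 9.54%). Past 0.5 on the higher side were 3.85%, 0%, 7.69% and 7.69% of the long member bins and 0% of the shorter ones. Over the table these higher shares were 5.91%, 8.22%, 7.45% and 6.59% of long bins and 6.07%, 7.43%, 7.77% and 4.57% of shorter ones. This split at 200 bp was chosen after the values were seen and has no test.

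Other ribosome genes in the table were read from fixed lists. Small subunit proteins had 9 models with 70 bins, which include bins of NUDT3 and ARL6IP1 from joined models that were not separated. Past 0.5, 2 of these bins were lower and 2 higher in KD1, 6 and 1 in KD2, 9 and 2 in METTL3, and 5 and 0 in METTL14. The lower shares were 2.86%, 8.57%, 12.9% and 7.14%, below the 9.03%, 13.9%, 14.8% and 10.6% of all listed bins. The higher shares were 2.86%, 1.43%, 2.86% and 0%, also below all listed bins (6%, 7.78%, 7.63% and 5.46%). Lower in all 4 comparisons were 22 of them (31.4%) and higher in all 4 were 6 (8.57%), against 28.8% and 12.1% for the large subunit. Over all listed bins these shares were 23.9% and 16.7%. In RPS6, exon bin 29 (chromosome 9, 19380169 to 19380187) stood at -0.39, -0.50, -0.83 and -0.60 in the authors' deposited table. RPS3 (joined with SNORD15B) exon bin 40 was higher in all but KD1, at -0.055, 0.58, 0.98 and 0.45 in the authors' deposited table. RPS2 (joined with SNORA64 and SNORA10) exon bin 17 had -0.255, -0.83, 0.026 and 0.042 in the authors' deposited table. Its exon bin 25 was higher in all, at 0.55, 0.49, 0.80 and 0.43 in the authors' deposited table. RPS10 (joined with NUDT3) exon bin 49 had -0.92, -1.08, -2.06 and 0.12 in the authors' deposited table, and so was split between METTL3 and METTL14 as RPL11 exon bin 9 was. Mitochondrial ribosomal proteins had 5 models with 19 bins, of which 1, 2, 2 and 2 were lower past 0.5 in KD1, KD2, METTL3 and METTL14 and 0 were higher. Their lower shares were 5.26%, 10.5%, 10.5% and 10.5%, beside 9.03%, 13.9%, 14.8% and 10.6% of all listed bins. Ribosome assembly factors had 5 models with 13 bins, of which 0, 1, 2 and 0 were lower past 0.5 and 0 were higher. For these the lower shares were 0%, 7.69%, 15.4% and 0%, beside the same shares of all listed bins. Whether any of these groups differs from the large subunit was not tested.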

How the data were processed

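The authors deposited 1 log2 value for each exonic bin and comparison, computed as control divided by knockdown, per the file headers. The sample descriptions name DEXSeq for this table. The submitters' processing notes list hg19 and, without saying what each did, TopHat 1.1.4, Bowtie 1.0.0, Trimmomatic, Cuffdiff and Cufflinks. By the sample descriptions the table is limited to genes that contain m6A. Normalization, strand use and how bins were chosen within those genes are not stated in these sources. Bin counts and read depth per library were not used, so precision is unknown. The sign was turned here to knockdown over control. Groups were taken from sample titles, and the 10 crosslinking libraries were not used.

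Members and lists were chosen with earlier results of these data known. Bins past a size of 0.5 and medians were counted beside those of all bins, with no test. Named bins were those past 0.5 in any comparison, the highest and lowest of each model, and all bins of small models; some were given by range. RPL11 and TCEB3 were separated at a gap of over 5000 bp between listed bins. All 16 names in the models matched RefSeq (TCEB3 by its synonym), on the same chromosome. RefSeq gave names, overlaps and start windows only. Counting was tested on simulated data. Alternatives covered size, bin length, joined models, centring and the unit counted. Python 3.11.15, numpy 2.4.6, pandas 2.3.3 and matplotlib 3.10.9 were used.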

Additional observations from a re-analysis of the deposited data

How the results depend on the processing

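Counts of member bins past the size followed the size chosen. Taken in the order KD1, KD2, METTL3, METTL14, there were 18, 23, 23 and 25 at 0.3, the last split into 13 lower and 12 higher. At 1 there were 2, 3, 2 and 3. Single-gene models alone, with 27 bins, held 4, 6, 6 and 3. Bins of at least 20 bp and centring on the median of all bins kept these counts within 1.5 times of those reported. On one side in all 4 comparisons were 9 bins in single-gene models, and 1 bin at a size of at least 0.3 in every comparison. Shares over all listed bins are not given at these other settings. The counts here therefore show only how the members' own numbers move, not whether members differ from the table. For KD1 the median was -0.039 with bins of at least 20 bp, -0.133 in single-gene models, -0.075 with each gene model counted once, -0.044 within the ribosomal protein genes only, and 0.0135, of the opposite sign, after centring. For KD2 it was -0.24 with bins of at least 20 bp, -0.0365 after centring and -0.1915 by gene model. For METTL3 it was -0.173 in single-gene models and -0.063 after centring. For METTL14 it was -0.111 with bins of at least 20 bp, -0.112 by gene model and 0 after centring. The centred values follow from the construction, since the median of all bins is taken off, and the cause of the other shifts was not tested. No replicate could be left out, because the values used are 1 per bin and comparison. No paired analysis was possible because no value per library was used. Depth per bin is unknown, so bins of a few bp may rest on few reads.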
